A study of Mus musculus with 4 samples.

Results

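The cells described here form the largest cluster of an epithelial class from the injured mouse pancreas, in which digestive enzyme and gastric-type mucin transcripts were found together. The authors deposited a class name and a cluster number for each cell. The members are the cells named Acinar/MucinDuctal that carry the cluster number held by most cells of that name, cluster 3. They number 968 of the 13362 cells with a deposited class and of the 21140 cells in the merged table. The same name also covers cluster 4, with 928 cells, and cluster 15, with 59 cells, and these 987 cells served as a comparison beside the 3698 Acinar and 3983 MucinDuctal cells. The cluster is called the intermediate cluster below.

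The mice carried Ptf1aCre-ERTM and ROSAYFP/+ on a CD-1 background, were 10 weeks old at the start of injury, and were the same in both groups in these respects. Tamoxifen activated the Cre in cells with Ptf1a promoter activity before injury, which marks acinar cells with EYFP. Caerulein, a peptide that overstimulates acinar cells and causes pancreatitis, was then injected for 2 weeks in 2 mice or 4 weeks in 2 mice, and EYFP-positive cells were sorted and sequenced as droplet 3' libraries. Uninjured mice were not analysed here, and each mouse gave 1 library.

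Acinar cells make and store digestive proenzymes in zymogen granules under the control of the PTF1 complex, in which Ptf1a binds DNA together with Rbpjl. After injury they can lose these granules and take on duct-like features, a process called acinar-to-ductal metaplasia. Some cells of injured stomach and pancreas also gain transcripts of gastric mucous neck cells, among them the mucin Muc6 and the trefoil factor Tff2, and this state is called spasmolytic polypeptide-expressing metaplasia (SPEM).

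The 3 genes named as markers of the cluster were all present in every mouse. Ctrb1, the proenzyme chymotrypsinogen B, stood at 120523 and 177071 CPM (the transcript count scaled by the total of that mouse and cell group) in the 2-week mice and at 136731 and 149987 CPM in the 4-week mice. Its mean of 146078 ± 23918 CPM (SD, n = 4 mice) lay between 229525 CPM in Acinar and 9223 CPM in MucinDuctal cells. Muc6 stood at 758 and 640 CPM at 2 weeks and at 1667 and 930 CPM at 4 weeks, against a mean of 63.6 CPM in Acinar and 4384 CPM in MucinDuctal cells. Tff2 stood at 5433 and 4218 CPM at 2 weeks and at 20093 and 10539 CPM at 4 weeks, against means of 1980 and 34953 CPM. In CPM the mean of the cluster thus lay between those of Acinar and MucinDuctal cells for each of the 3 genes. For Muc6 and Tff2 this depended on the scale. After thinning each cell to an equal transcript total, Muc6 was found in 60.6% of members and 58.9% of MucinDuctal cells of 2-week mouse 2. In the other mice the Muc6 share of members was below that of MucinDuctal cells. Tff2 was found in 96.5%, 93.7%, 96.9% and 97.5% of thinned members in the 4 mice. These shares were above those of Acinar (88.8%, 91.7%, 90.5% and 83.2%) and MucinDuctal cells (84.6%, 83.5%, 87.1% and 93.7%) in every mouse. Median unthinned Tff2 transcripts per cell were 11, 45, 31 and 19 in members, below the Acinar medians of 54, 53, 56 and 44. All cells compared were clustered on these counts, so the levels are a description of the label and no test of it.

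Free RNA in the droplets was gauged from 878 lymphocyte-like cells without a deposited class, which held transcripts of at least 2 lymphocyte genes and 0 of Epcam and Krt18. They held Ctrb1 at a mean of 9423 CPM, Muc6 at 83.5 CPM and Tff2 at 1059 CPM. In CPM the intermediate cluster was above the lymphocyte-like cells for all 3 genes in every mouse. For Ctrb1 in MucinDuctal and Muc6 in Acinar cells the comparison depended on the scale. In mean UMIs per cell, MucinDuctal cells held 127 to 264 Ctrb1 UMIs against 21.6 to 56.5 in lymphocyte-like cells, and Acinar cells 0.963 to 3.002 Muc6 UMIs against 0.174 to 0.389.

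**Figure D1:**
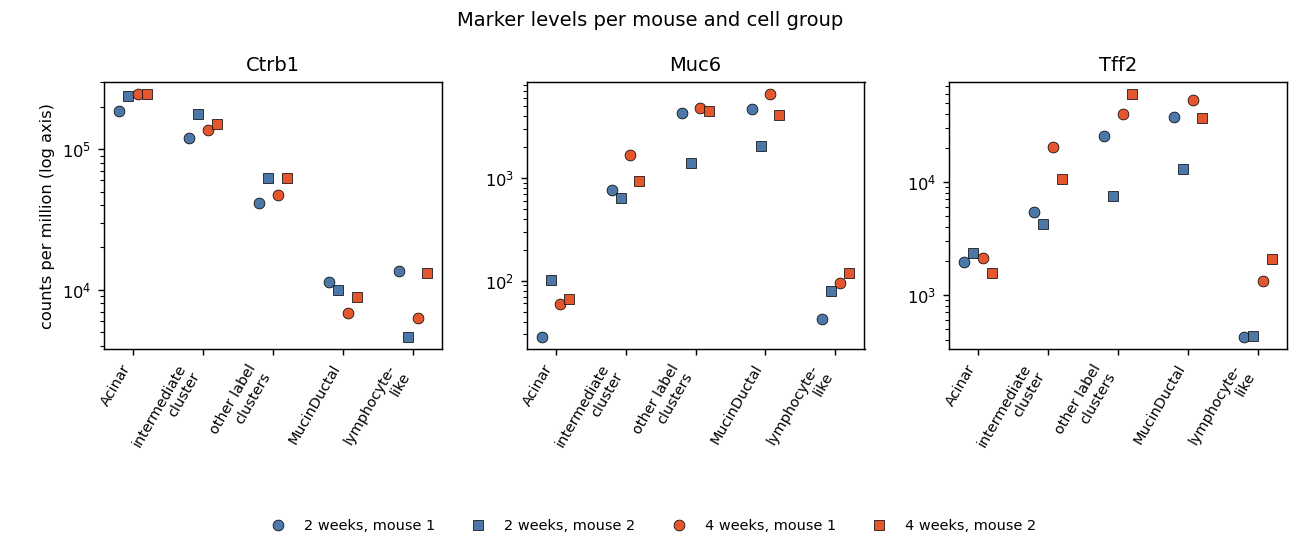
Level of Ctrb1, Muc6 and Tff2 (CPM, log axis) in 5 cell groups, with 1 point per mouse, blue for 2 weeks and red for 4 weeks. The intermediate cluster lies between Acinar and MucinDuctal cells for each gene in each mouse, and lymphocyte-like cells show the free RNA level.

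The RefSeq promoters of these markers, the 250 bases before the start on build GRCm38.p6, are shown because Ptf1a and Rbpjl differed between the cell groups. Entries were found for 2 of the 3 genes, Ctrb1 at chr8:111691011-111691260 and Muc6 at chr7:141655394-141655643, both on the minus strand, and Tff2 had none. Capitals mark a PTF1-type motif (an E-box, CANNTG, then NNNN and TTTCC) in Ctrb1, and a TATATAA in Muc6.
Ctrb1: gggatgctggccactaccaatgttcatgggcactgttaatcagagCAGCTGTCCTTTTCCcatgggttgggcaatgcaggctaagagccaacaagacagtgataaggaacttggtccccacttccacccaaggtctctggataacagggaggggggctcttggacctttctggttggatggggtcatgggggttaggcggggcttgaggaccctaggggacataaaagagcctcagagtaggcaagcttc
Muc6: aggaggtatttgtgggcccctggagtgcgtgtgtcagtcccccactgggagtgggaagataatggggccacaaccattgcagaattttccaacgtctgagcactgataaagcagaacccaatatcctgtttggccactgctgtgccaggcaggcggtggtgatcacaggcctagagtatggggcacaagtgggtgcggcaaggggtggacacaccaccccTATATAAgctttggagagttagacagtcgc
The PTF1-type motif lay at -205 to -191 from the Ctrb1 start and is present in 111 of 32851 promoters of the same length (0.338%), with both strands searched. The TATATAA lay at -30 to -24 from the Muc6 start and is present in 3.04% of them. Each promoter held 1 E-box (CANNTG, present in 66.2% of promoters), which in Ctrb1 is part of the PTF1-type motif. TATAAA, also searched and present in 12.4% of promoters, was found in neither window. A match of letters is not evidence of binding.

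Members were shallow in 3 of 4 mice, and this touches every result below. Their median was 2495 and 19556 UMIs (transcript molecules) per cell in 2-week mice 1 and 2, and 3338.5 and 4600 UMIs in 4-week mice 1 and 2. Acinar medians ran from 24008 to 32664.5 UMIs, MucinDuctal medians from 15110 to 21810, and the other clusters of the label from 2342 to 19563. The 2-week mouse 2 thus stood apart in both kinds of intermediate cells. Only 216 of the 968 members held 10000 UMIs or more, yet they gave 81.5% and 94.9% of the summed counts at 2 weeks and 62.4% and 51.2% at 4 weeks. Of the members, 50.9% held a single EYFP transcript, near the 48.9% of the other clusters of the label. The share was 15.6% in Acinar and 4.1% in MucinDuctal cells. Cell barcodes shared with another library numbered 11 among the members.

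**Figure D2:**
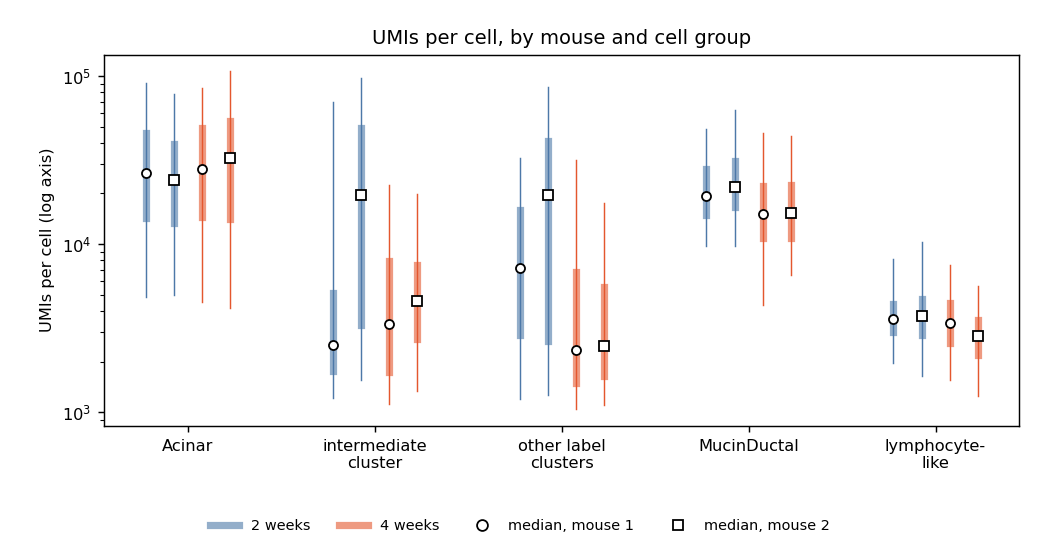
UMIs per cell (log axis) in 5 cell groups and 4 mice, with the median as a point, the quartiles as a thick bar and the 5th to 95th percentile as a thin line. Members of the intermediate cluster have medians of 2495 to 4600 UMIs in 3 mice and of 19556 UMIs in 2-week mouse 2.

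High doublet scores were frequent in the cluster. A doublet caller run per mouse called 34 of 21140 cells (0.161%), too few to have worked, so no cell was removed. Among the 905 cells with the highest scores were 130 members, or 13.4% of the cluster, against 11.7% of the other clusters of the label, 1.43% of Acinar and 1.36% of MucinDuctal cells. In 2-week mice 1 and 2 the high scores lay among deep members, with 40.0% and 31.6% of those above 10000 UMIs and at most 3.45% of the shallower ones. In the 4-week mice they lay at all depths, with 12.7%, 28.1% and 31.3% of members under 3000, between 3000 and 10000, and of 10000 or more UMIs in mouse 1, and 10.3%, 9.78% and 12.3% in mouse 2. Results without these cells are given where they differ, and what part doublets have in the cluster was not tested.

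Of the typed cells of 2-week mouse 1 the cluster was 5.70%, with a Clopper-Pearson 95% interval from 4.89% to 6.59%, and of 2-week mouse 2 it was 3.70% (3.11% to 4.38%). In the 4-week mice it was 5.69% (4.86% to 6.61%) and 12.7% (11.7% to 13.8%). These intervals cover counting error only. The mean was 4.70% ± 1.41 at 2 weeks and 9.20% ± 4.97 at 4 weeks (SD, n = 2), the groups overlapped, and a two-sided exact permutation test gave p = 0.667, where the smallest possible value is 0.3333. The 4-week mouse 2 gave 505 of the 968 members. Without it the difference between the times was 0.985 percentage points in place of 4.50.

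Over all genes, more differed from MucinDuctal than from Acinar cells. Against Acinar cells 130 of 6480 genes with a mean of 10 CPM or more (2.01%) were higher by at least 1 log2 unit in 4 of 4 mice and 0 were lower, with a median over all genes of 0.52. Against MucinDuctal cells 79 of 8058 (0.98%) were higher and 249 (3.09%) lower, with a median of -0.47. Against the other clusters 38 of 7854 (0.484%) were higher and 42 (0.535%) lower, with a median of -0.37. Enzymes take a large share of the library in enzyme-rich cells, and the medians are off 0. With enzymes left out of the library size, the enzyme ratio given below became -1.02 to Acinar and 4.50 to MucinDuctal cells.

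Digestive enzymes were the most abundant products of the cluster. The 29 enzyme genes of the list together took 350317 and 362125 CPM at 2 weeks and 337283 and 356857 CPM at 4 weeks, with a mean of 351646 ± 10724 CPM. The mice differed little in this sum. Acinar cells held 523630 ± 43311 CPM, the other clusters of the label 120329 ± 20318, MucinDuctal cells 24443 and lymphocyte-like cells 25586. Within mice the cluster was lower than Acinar cells by 0.57 ± 0.15 on the log2 scale (of CPM plus a pseudocount of 10), and higher than MucinDuctal cells by 3.91 ± 0.56 and than the other clusters by 1.56 ± 0.23, each in 4 of 4 mice.

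In CPM single enzymes stood a little below their Acinar level. Of the 29 genes, 24 reached a mean of 10 CPM. Their median difference from Acinar cells was -0.51, against 0.52 over all 6480 genes. Lower by 1 log2 unit in every mouse were 0 of them, and also 0 of all 6480 genes. In mean UMIs per cell, which depth affects, Ctrb1 stood at 1355, 5607, 977 and 1154 in members. Acinar cells held 6370, 7105, 8460 and 9872. Chymotrypsin-like Ctrc differed by -0.39 ± 0.06, elastase Cela3b by -0.45 ± 0.08, carboxypeptidase Cpa1 by -0.60 ± 0.20, pancreatic lipase Pnlip by -0.52 ± 0.18 and ribonuclease Rnase1 by -0.35 ± 0.18. The lowest ratios were those of trypsinogen copies, Prss1 by -1.18 ± 0.24 and Prss3 by -1.02 ± 0.14, with Gm5771, Gm2663 and Try5 at -0.93, -0.92 and -0.83. Reads of these near-identical trypsinogen genes, and of the amylase copies, can be split between copies by the counting, so their separate values are uncertain. Against MucinDuctal cells all 24 were higher by at least 1 log2 unit in every mouse, led by Cela2a (5.97 ± 0.65), Cpa1 (5.83 ± 0.56) and Try5 (5.81 ± 0.49). Their MucinDuctal means of 224, 238 and 325 CPM lay below those of lymphocyte-like cells (1156, 952 and 1432 CPM), so the size of these ratios is uncertain.

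Granule proteins followed the enzymes where they are acinar-specific. Zg16, a zymogen granule membrane-associated protein, stood at 5839 ± 1824 CPM against 7526 in Acinar and 112 in MucinDuctal cells. Sycn (syncollin) stood at 3378 ± 322 CPM against 4913 and 215, and the trypsin inhibitor Spink1 at 1820 ± 492 CPM against 2659 and 40.7. The small GTPases of granule release ran the other way, with Rab27b at 35.8 ± 4.55 CPM against 28.7 in Acinar and 86.4 in MucinDuctal cells, and Rab3d at 95.7 ± 19.2 against 70.7 and 144. Of the 9 granule genes 5 were higher than in MucinDuctal cells by 1 log2 unit in every mouse and 0 were lower.

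Of the 6 transcription factors of acinar identity, 2 were higher than in MucinDuctal cells by 1 log2 unit in every mouse. The sum over the 6 was 611 CPM in the cluster, 563 in Acinar and 539 in MucinDuctal cells (0.18 ± 0.21 against MucinDuctal cells, higher in 3 of 4 mice). Rbpjl stood at 289 and 159 CPM at 2 weeks and at 226 and 139 CPM at 4 weeks, a mean of 203 ± 68.5 CPM, against 157 in Acinar and 15.5 in MucinDuctal cells. The difference from Acinar cells, 0.32 ± 0.56 on the log2 scale, was smaller than its spread between mice. Ptf1a stood at 58.6 and 31.3 CPM at 2 weeks and at 13.1 and 34.2 CPM at 4 weeks, against means of 57.6 and 1.72 CPM. It was lower than in Acinar cells by 0.69 ± 0.40 and higher than in MucinDuctal cells by 1.82 ± 0.55. With each cell thinned to 1500 UMIs, a Ptf1a transcript was found in 0.787% to 8.33% of members per mouse, against 7.10% to 9.81% of Acinar cells and at most 0.433% of MucinDuctal cells. Unthinned shares were 8.75% to 34.6% of members, 51.7% to 59.6% of Acinar cells and at most 4.25% of MucinDuctal cells. Bhlha15 (Mist1), which sustains the secretory apparatus, and the nuclear receptor Nr5a2 were near their Acinar level (-0.18 ± 0.21 and 0.05 ± 0.43). Summed over its 6 genes the list was lower than in the other clusters of the label by 0.14 ± 0.13, a direction that turned under 4 other ways of scaling or weighting the cells, with values of 0.29 to 0.41.

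The Reg family, secreted lectins made by acinar cells under stress, was also closer to Acinar than to MucinDuctal cells. It took 58936 ± 12620 CPM, against 79681 in Acinar and 9193 in MucinDuctal cells, with ratios of -0.45 ± 0.19 and 2.72 ± 0.23. Most of this was Reg1, at 53697 ± 8223 CPM.

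Genes of the mucous neck program were far above Acinar and below MucinDuctal cells. Summed over 11 genes they took 24565 and 11245 CPM at 2 weeks and 43568 and 28412 CPM at 4 weeks. The 2-week mouse 2 was lowest in the cluster, and it was also lowest in MucinDuctal cells (38594 CPM against 132107 to 203344 in the other mice). Within mice the cluster was higher than Acinar cells by 2.94 ± 0.95, lower than MucinDuctal cells by 2.24 ± 0.40 and lower than the other clusters by 1.92 ± 0.62. Of the 11 genes, 7 were at least 1 log2 unit above Acinar and 7 at least 1 below MucinDuctal cells in every mouse.

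Of this group's genes with a mean of 100 CPM or more, Pgc, Gkn3 and Muc6 (3.78 ± 0.91) had the largest ratios to Acinar cells. Pgc (pepsinogen C) stood at 9047, 405, 8182 and 4364 CPM in the 4 mice, Gkn3 (a gastrokine of neck cells) at 7570, 4412, 11342 and 10747 CPM, and Cblif (gastric intrinsic factor) at 1076, 64.6, 972 and 328 CPM. Pgc and Cblif were thus low in 2-week mouse 2, by a wider margin than Gkn3. Pgc, Gkn3 and Cblif were higher than in Acinar cells by 4.53 ± 0.87, 3.86 ± 1.14 and 3.11 ± 0.77. The water channel Aqp5 was even between mice (75.2 to 89.3 CPM) and higher by 2.52 ± 0.35, and the mucin-folding disulfide isomerase Agr2 was higher by 2.01 ± 0.44. Muc5b was listed at 0 in the cluster.

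Gastric pit genes were sparse. Muc5ac, the mucin of pit cells, had 0 UMIs in all 4 mice, and Gkn1, Gkn2 and Psca each stood below 1 CPM. Tff1 stood at 0.523, 13.8, 0.874 and 5.92 CPM against a mean of 79.1 CPM in MucinDuctal cells. The exceptions were Muc1, a membrane mucin, at 137 ± 35.3 CPM, and Anxa10 at 32.5 ± 10.1 CPM, both below their MucinDuctal level (-1.51 ± 0.32 and -1.36 ± 0.48).

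Ductal genes were raised against Acinar cells by 1.95 ± 0.38 as a sum, with 6 of 16 genes at least 1 log2 unit higher in every mouse. Over all genes 2.01% were higher, and 0 were lower both in the list and over all genes. Spp1 (osteopontin, a duct and injury marker) had the largest ratio to Acinar cells among genes with a mean of 100 CPM or more. It stood at 3618 and 2938 CPM at 2 weeks and at 3128 and 2785 CPM at 4 weeks, against means of 158 in Acinar and 8073 in MucinDuctal cells, a ratio of 4.61 ± 1.23 to Acinar cells. After thinning, 65.6% to 88.2% of members held a Spp1 transcript, against 10.7% to 32.5% of Acinar cells and 14.8% to 30.6% of lymphocyte-like cells (unthinned 91.2% to 98.5%, 69.7% to 92.1% and 32.3% to 54.5%). Sox9, the duct and progenitor transcription factor, was even between mice (264, 224, 256 and 264 CPM) and higher than in Acinar cells by 2.25 ± 0.79. Car2, a carbonic anhydrase of duct cells, was higher by 3.11 ± 0.37. The keratins differed less, with Krt8 at 1.18 ± 0.58, Krt18 at 0.86 ± 0.40 and Krt19 at 1.41 ± 0.35. In mean UMIs per cell Krt19 stood at 0.712, 8.92, 0.625 and 1.45 in members. Acinar cells held 1.02, 2.63, 0.731 and 2.32, so on this scale members were higher only in 2-week mouse 2. Cftr, the duct chloride channel, stood at 14.7 ± 6.78 CPM. Against MucinDuctal cells the ductal sum was lower by 1.35 ± 0.14.

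Transcription factors linked to metaplasia were raised against Acinar cells by 1.84 ± 0.57 as a sum and lower than in MucinDuctal cells by 1.41 ± 0.20. Of 17 genes, 5 were at least 1 log2 unit above Acinar and 9 at least 1 below MucinDuctal cells in every mouse. Onecut2 stood at 44.5, 227, 69.1 and 96.7 CPM, higher than in Acinar cells by 2.35 ± 0.38, with the highest level in 2-week mouse 2. Foxq1 and the epithelial factor Ehf were higher by 1.76 ± 0.26 and 1.91 ± 0.35, while Pdx1, which patterns pancreas and antrum, differed by 0.47 ± 0.15. Enzymes that build O-glycans on mucins were higher than in Acinar cells by 1.25 ± 0.40, led by Gcnt3 (1.87 ± 0.40) and A4gnt (1.49 ± 0.57), and lower than in MucinDuctal cells by 1.77 ± 0.40.

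**Figure D3:**
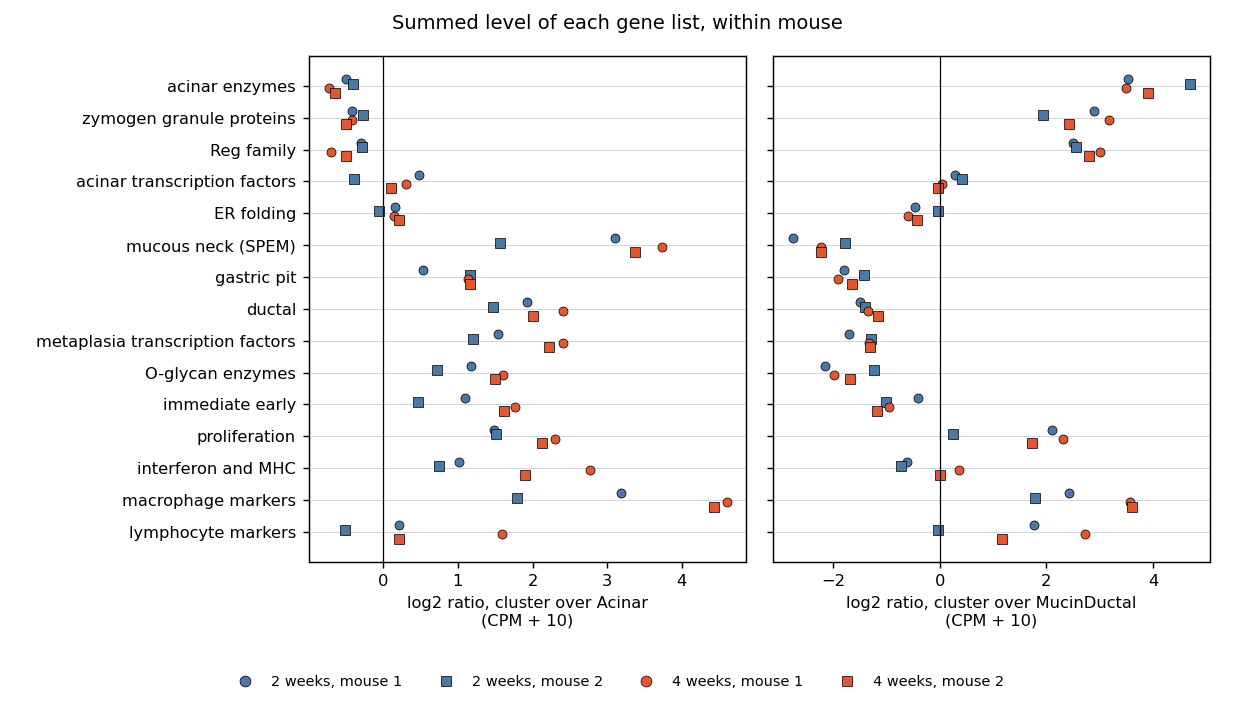
Ratio of the summed level of 15 gene lists in the intermediate cluster to that in Acinar cells (left) and MucinDuctal cells (right) of the same mouse, on the log2 scale of CPM plus 10, with 1 point per mouse. Enzymes lie at -0.57 on average against Acinar and 3.91 against MucinDuctal cells, mucous neck genes at 2.94 and -2.24, and macrophage markers lie above 0 on both sides.

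Placement was also measured gene by gene over the 184 genes that differed between Acinar and MucinDuctal cells by at least 2 log2 units in every mouse and had a mean of 100 CPM in the higher type. On a scale where 0% is the Acinar and 100% the MucinDuctal level in log2 units, the cluster lay at a median of 10.1% ± 1.34 (SD over 4 mice) for the 50 genes higher in Acinar cells. For the 134 genes higher in MucinDuctal cells it lay at 50.7% ± 4.66, from 44.8% in 2-week mouse 1 to 55.4% in 4-week mouse 2. The other clusters of the label lay at 43.3% ± 5.86 and 86.9% ± 3.01. Of the 184 genes, 182 lay between the 2 types, and the other two lay on the Acinar side of Acinar cells. A log scale places any group that holds both kinds of transcript near the higher type for each set, so the 2 sets are not compared with each other.

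Transcripts of both programs were found under the same cell barcodes, which can hold more than 1 cell. With each cell thinned to 1500 UMIs, which left out 26, 6, 29 and 34 members, the median member held 443.9, 451.0, 448.0 and 451.9 enzyme UMIs in the 4 mice. Acinar cells held medians of 677.6 to 813.6 enzyme UMIs, the other clusters 124.5 to 210.8, MucinDuctal cells 8.20 to 33.5 and lymphocyte-like cells 15.7 to 57.1. Mucous neck UMIs had a median of 25.3 and 13 at 2 weeks and 52.2 and 34.3 at 4 weeks, against 4.00 to 5.20 in Acinar, 21.5 to 225.7 in MucinDuctal and 1.70 to 5.13 in lymphocyte-like cells. Unthinned member medians were 736.5, 3905, 960.5 and 1341 enzyme UMIs and 46, 132, 107.5 and 107 mucous neck UMIs. Without the cells of highest doublet score the enzyme medians were 442.8, 385.2, 408.1 and 444.6 UMIs and those of the mucous neck genes 25.4, 14.9, 58.2 and 33.95 UMIs. The enzyme medians thus varied less between mice than the mucous neck medians, which were lowest in 2-week mouse 2.

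Ctrb1, Muc6 and Tff2 were found together in 72.9% and 59.8% of thinned members at 2 weeks and in 80.2% and 70.5% at 4 weeks. In the other clusters of the label the shares were higher in every mouse, at 73.3%, 62.8%, 81.4% and 91.5%. In Acinar cells the share was 5.4% to 13.6%, and in lymphocyte-like cells 4.2% to 17.3%, and these ranges overlapped. MucinDuctal cells reached 47.3% to 76.6%, where the Ctrb1 median of 3 to 7 UMIs lay at or below the 7 to 21 UMIs of lymphocyte-like cells. Among members, cells rich in enzymes held fewer mucous neck UMIs in 4-week mouse 1 (Spearman correlation -0.53 over 131 thinned cells), and more weakly in the other mice (-0.14, -0.24 and -0.06). These correlations are descriptions over cells that share a library, and parts of a fixed total tend to correlate negatively.

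**Figure D4:**
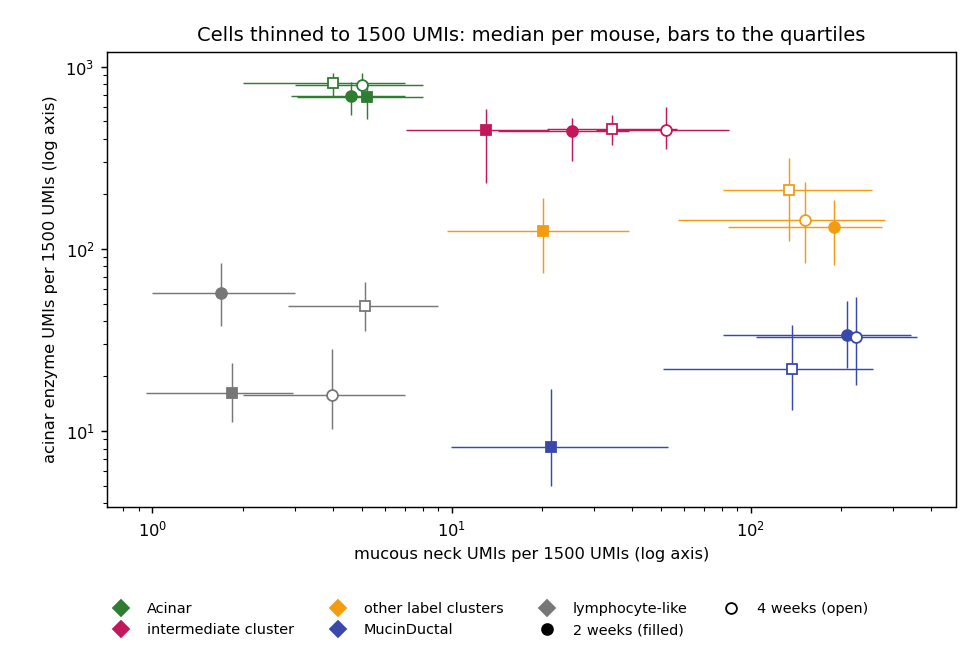
Median acinar enzyme UMIs against median mucous neck UMIs per cell after thinning to 1500 UMIs (both axes log), with bars to the quartiles, for 5 cell groups and 4 mice. Members have enzyme medians of 443.9 to 451.9 UMIs and mucous neck medians of 13 to 52.2 UMIs, between Acinar and MucinDuctal cells for enzymes.

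Members of different depth were not alike. The median enzyme share was 28.2%, 13.8%, 25.4% and 24.9% of UMIs in members under 3000 UMIs, and 33.3%, 36.9%, 37.4% and 39.7% in those of 10000 or more. It was thus higher in deep members in each mouse, most of all in 2-week mouse 2. Mitochondrial transcripts ran the other way, at 3.0%, 4.27%, 1.88% and 1.93% in the shallow and 1.45%, 1.51%, 0.94% and 0.98% in the deep members.

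Transcripts of other cell types were found in the cluster, among them macrophage and hormone genes. The 10 macrophage markers summed to 686 and 294 CPM at 2 weeks and to 1346 and 1173 CPM at 4 weeks, against 44.9 to 78 in Acinar, 78 to 119 in MucinDuctal and 126 to 515 in the other clusters. The cluster was higher than Acinar cells by 3.50 ± 1.30 and than MucinDuctal cells by 2.85 ± 0.89, and by 3.85 and 3.36 without the cells of highest doublet score. Apoe, a lipid carrier abundant in macrophages, made up most of the sum at 575, 181, 966 and 809 CPM, while the macrophage-restricted receptors Csf1r and Adgre1 were low at 4.44 ± 1.03 and 2.16 ± 0.46 CPM. At least 5 macrophage UMIs were held by 60 of 170, 60 of 133, 69 of 160 and 163 of 505 members, or 32.3% to 45.1%, against 5.38% to 11.1% of the deeper Acinar and 3.33% to 11.9% of the deeper MucinDuctal cells. A summed value cannot tell more cells with a transcript from more transcripts per cell. The signal was higher in shallow members, at 1543, 2387, 2676 and 1866 CPM under 3000 UMIs against 500, 189, 806 and 1132 CPM at 10000 or more. Lymphocyte-like cells held these markers at 580 to 3349 CPM and are no background for them. Lymphocyte markers were low, at 23.3 to 96.2 CPM against 5059 to 6010 in lymphocyte-like cells, and endothelial markers stood at 2.06 ± 0.78 CPM.

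Hormone transcripts varied widely between mice. The enteroendocrine list summed to 1256, 390, 9989 and 2843 CPM, more than the macrophage list in every mouse, against 140 to 381 CPM in lymphocyte-like cells. The other clusters of the label held 4536, 337, 2061 and 3315 CPM, and the cluster was higher in 2 of 4 mice (0.10 ± 1.69). It was uneven between cells, with a mean of 71.4 and a median of 8 UMIs per cell in 4-week mouse 1. Its median share was 0.248% to 0.552% of UMIs in members under 3000 UMIs and 0.00596% to 0.0156% in those of 10000 or more. Ghrl (ghrelin) stood at 761, 56.8, 9481 and 214 CPM, Sst (somatostatin) at 94.2, 135, 136 and 971 CPM, and Ppy (pancreatic polypeptide) at 19.4, 8.31, 101 and 713 CPM. Each was thus high in 1 of the 4-week mice. Lymphocyte-like cells held Ghrl at 298, 52.3, 137 and 145 CPM, and in 2-week mouse 2 the cluster was close to that level. Islet genes were low, with Ins2 at 15.3 ± 12.7 CPM against 22 CPM in lymphocyte-like cells. Tuft markers summed to 63.3, 160, 85.7 and 397 CPM.

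Genes above both neighbouring types were few. In all, 6 of 8069 genes (0.0744%) were higher than in both Acinar and MucinDuctal cells by at least 1 log2 unit in every mouse, and 0 were lower than in both. Another rule asked for 100 CPM or more and only the same sign in 4 of 4 mice. That list was led by Apoe, the MHC class II gene H2-Ab1 (2.25 ± 1.27 and 1.71 ± 1.46), Sst, and the granin Chgb of endocrine granules (2.48 ± 1.61 and 1.98 ± 0.89). H2-Ab1, Sst and Chgb were not among the 6 genes above. Apoe is in the macrophage list and H2-Ab1 in the interferon and MHC list, whose sum did not go the same way, at -0.24 ± 0.51 against MucinDuctal cells and higher in 2 of 4 mice. An injury gene in the same direction was Lcn2 (lipocalin 2, an iron-binding acute phase protein), at 58.1, 131, 78.7 and 67.7 CPM against means of 2.11 in Acinar, 9.52 in MucinDuctal and 0.889 in lymphocyte-like cells (2.90 ± 0.38 and 2.26 ± 0.47). The sum of its list, 12 chemokine and injury genes, differed from Acinar cells by -0.64 ± 0.64 and was higher in 1 of 4 mice. Against MucinDuctal cells that sum differed by 1.16 ± 0.94, higher in 4 of 4 mice.

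Cell cycle genes were also higher in the cluster than in either type, by 1.86 ± 0.42 and 1.60 ± 0.93 in CPM as a sum of 16 genes in 4 of 4 mice, though by only 0.26 over MucinDuctal cells in 2-week mouse 2. Of the 13 genes that reached a mean of 10 CPM, 4 were higher than in Acinar, 1 than in MucinDuctal and 1 than in both by 1 log2 unit in every mouse. In mean UMIs per cell the list was not higher than in Acinar cells in 2-week mouse 1 (8.49 against 9.04) or 4-week mouse 2 (4.19 against 4.66). The sum was 756 and 450 CPM at 2 weeks and 521 and 545 CPM at 4 weeks. Ube2c, which drives exit from mitosis, stood at 149, 74.8, 47.2 and 50.9 CPM, and Mki67 at 79.0, 30.9, 44.6 and 43.5 CPM against means of 10.1 in Acinar and 8.07 in MucinDuctal cells. With each cell thinned, a Mki67 transcript was found in 17.4%, 4.72%, 8.40% and 4.88% of members, against 1.59% to 3.39% of Acinar, at most 1.88% of MucinDuctal and at most 3.28% of lymphocyte-like cells. In the other clusters of the label the shares were 4.17%, 5.52%, 3.57% and 2.75%, so in 2-week mouse 2 they exceeded that of the members. Unthinned shares were 30.6%, 23.3%, 11.9% and 19.0% of members and 8.97% to 23.2% of Acinar cells. Lymphocyte-like cells held the list at 346 to 795 CPM.

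Stress genes differed less. Immediate early genes were higher than in Acinar cells by 1.24 ± 0.59 and lower than in MucinDuctal cells by 0.88 ± 0.33. Folding factors of the endoplasmic reticulum were within 0.11 ± 0.12 of Acinar cells, and their difference of -0.38 ± 0.24 from MucinDuctal cells became 0.21 with enzymes left out of the library size. Nupr1, a stress-induced chromatin protein of acinar cells, stood at 4305, 664, 1293 and 2297 CPM, against means of 3643 in Acinar and 178 in MucinDuctal cells. Notch and EGF receptor pathway genes were low in level, with a sum of 190 CPM. The sum was higher than in Acinar cells by 1.39 ± 0.32 and lower than in MucinDuctal cells by 1.12 ± 0.16. Hes1, a Notch target, stood at 68.3 ± 8.79 CPM against 13.6 in Acinar and 161 in MucinDuctal cells, and Hbegf, an EGF receptor ligand, at 29.4 ± 19.2 against 5.15 and 104.

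The next question was whether the cluster changed between 2 and 4 weeks of injury. By edgeR's quasi-likelihood test on UMIs summed per mouse, 1 of 10221 genes passed at a Benjamini-Hochberg adjusted p of 0.05 (0.00978% higher, 0% lower), with 296 at an unadjusted p under 0.05 and 25 calls by DESeq2. The gene was C1qb, a subunit of complement C1q made by macrophages. Its level was 13.6 and 13.1 CPM at 2 weeks and 64.7 and 70.5 CPM at 4 weeks, and it rose by 2.33 on the log2 scale (SE 0.232, edgeR adjusted p 0.0163). In mean UMIs per cell it stood at 0.153 and 0.414 at 2 weeks and at 0.463 and 0.543 at 4 weeks, so the times were nearer on this scale and 2-week mouse 2 was close to the 4-week mice. With each cell thinned to 1500 UMIs before summing, the difference was 0.69 (edgeR adjusted p 0.874), and the call was also lost without the robust setting (0.109) and without 4-week mouse 2 (0.0592). It passed in 9 of 12 alternatives, with adjusted p from 8.85e-14 to 0.874. With each cell thinned, edgeR called Ppy alone (2.26, adjusted p 0.00976). C1qb was also higher at 4 weeks in the other clusters of the label, at 5.02 and 5.77 CPM at 2 weeks and 29.0 and 33.3 CPM at 4 weeks.

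No other gene passed. The next genes were taken by smallest p only among those with a mean of 10 CPM or more and separated times in CPM. Their separation was thus set by the rule and is no result. Higher at 4 weeks were Lyz2 (lysozyme of myeloid cells), C1qa, Rac2, C1qc, H2-Eb1, Cd52 and Srgn, and lower were Reg3a and Itln1. With each cell thinned to 1500 UMIs the direction turned for C1qa (-0.026) and H2-Eb1 (-0.122). Lyz2 stood at 38.2 and 46.5 CPM at 2 weeks and 144 and 133 CPM at 4 weeks (1.67, SE 0.207, edgeR adjusted p 0.0561). Reg3a, an antibacterial lectin, stood at 348 and 494 CPM at 2 weeks and 105 and 137 CPM at 4 weeks (-1.81, SE 0.27, edgeR adjusted p 0.0884), and in Acinar cells at 228, 463, 139 and 123 CPM.

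**Figure D5:**
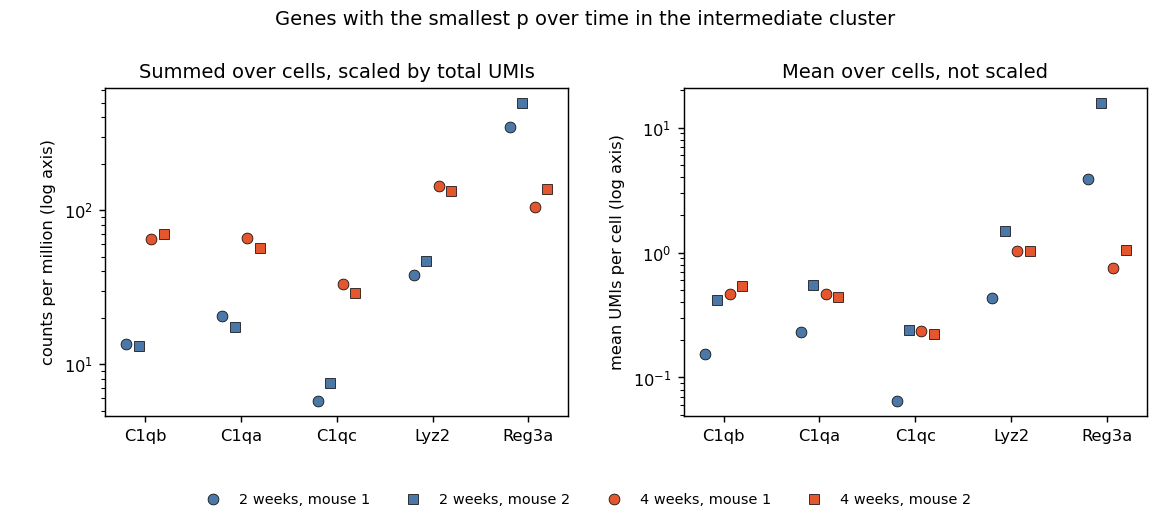
Level of C1qb, C1qa, C1qc, Lyz2 and Reg3a in the intermediate cluster as CPM (left) and as mean UMIs per cell (right), both on log axes, with 1 point per mouse. The genes were chosen among those whose 2-week and 4-week mice separate in CPM, so that separation is no result. In UMIs per cell the 2-week mouse 2 lies above both 4-week mice for C1qa, C1qc and Lyz2.

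By list, 9 of the 9 macrophage genes tested had both 4-week mice above both 2-week mice, with a median change of 1.51 in CPM. On other scales the times overlapped, with 7.71, 9.30, 9.62 and 9.03 macrophage UMIs per cell as a mean in the 4 mice, 5 or more of them in 35.3%, 45.1%, 43.1% and 32.3% of members, and a macrophage UMI in 72.6%, 48.2%, 59.4% and 55.2% of thinned members. Over all genes tested the share was 15.3% above and 14% below, with a median of -0.02. The 6 Reg genes tested were all below, with a median of -1.45, and 7 of 13 immediate early genes were below, with a median of -0.79. Of the mucous neck genes 3 of 10 were above and 0 below, among them Tff2 (1.65, edgeR adjusted p 0.364), and of the acinar enzymes 1 of 28 was above and 4 below. None of these list genes passed the test other than C1qb.

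A time change that differed between the cluster and Acinar cells was tested as an interaction with the mouse as a block. By edgeR 53 of 12829 genes (0.413%) had a higher change in the cluster and 7 (0.0546%) a lower one, and DESeq2 called 19. The higher ones were led by C1qa, Cd74 (the MHC class II invariant chain), C1qb, Lyz2 and H2-Aa. Of the macrophage list 6 of 10 genes were among them, and of the interferon and MHC list 5 of 17, namely Cd74, H2-Aa, H2-Ab1, H2-Eb1 and Isg15. In the cluster itself the change of Isg15 was negative (-2.83, SE 2.66), so its call is a smaller fall than in Acinar cells. Those of Cd74 and the H2 genes were positive (1.70 to 2.09). The B-cell marker Ms4a1 was called too, at 0, 0.95, 12.2 and 3.86 CPM (4.79, edgeR adjusted p 0.045). Of the 5 lymphocyte markers tested 4 had both 4-week mice above both 2-week mice in CPM, against 15.3% of all genes of the time test. The summed list overlapped between the times, at 39.3 and 23.3 CPM at 2 weeks and 96.2 and 30.9 CPM at 4 weeks. A lymphocyte UMI was held by 20.6% and 34.6% of members at 2 weeks and by 16.25% and 14.1% at 4 weeks. Lymphocyte-like cells held Cd74 at 7141 CPM and Cd52 at 3013 CPM, and what part lymphocyte or macrophage RNA has in these changes was not tested. Cd74 stood at 141, 80.5, 534 and 334 CPM in the cluster and at 31.6, 36, 16.2 and 14 CPM in Acinar cells, a difference of changes of 2.63 (SE 0.269, edgeR adjusted p 4.57e-12). Among the lower ones were Hsd17b13, Sostdc1 and Wtip, and of the listed genes Ddit3 (-1.62, edgeR adjusted p 0.000513), a stress transcription factor that stood at 76.9, 23.7, 14.9 and 20.3 CPM. No enzyme, mucous neck or ductal gene of the lists was called in either direction.

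Against MucinDuctal cells the edgeR interaction called 7 of 12617 genes as higher (0.0555%) and 0 as lower, with 499 at an unadjusted p under 0.05 and 17 calls by DESeq2. These were the histone genes Hist1h2ap and Hist1h1b, the MHC class II genes H2-Eb1 and H2-Aa, Apoc1, Tuba1a and Ccl2. Hist1h1b and Ccl2 fall outside the rule for named genes and are named because the count is small. H2-Aa stood at 50.8, 15.7, 166 and 109 CPM in the cluster and at 26.4, 15.9, 8.69 and 10.9 CPM in MucinDuctal cells (3.17, SE 0.351, edgeR adjusted p 0.0264). Ccl2 was at most 3.09 CPM in the cluster and stood at 23.4 CPM in MucinDuctal cells of 2-week mouse 1 and at most 0.324 CPM in those of the other mice. Without the robust setting only Hist1h2ap was called (2.71, edgeR adjusted p 0.0192). With any 1 mouse left out, genes were called in both directions. The same held without cells holding 1 EYFP transcript (10 higher, 1 lower) and with no gene filter (88 higher, 12 lower).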

How the data were processed

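Droplet 3' libraries of sorted EYFP-positive pancreas cells were analysed, 2 mice after 2 weeks and 2 after 4 weeks of caerulein. The deposited tables hold raw UMI counts per gene and cell, and the cell class and cluster were deposited by the authors. Per the submitters' processing notes, Cell Ranger 4.0.0, Seurat 3.2.3 and build mm10 were used. How classes were assigned is not given in the sources used here, and the smallest deposited cell had 1000 UMIs. Cells were assigned to mice by the sample name in the cell name.

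For each mouse and cell group the counts were added up. Totals ran from 1143699 to 4211124 UMIs in the cluster and from 8631074 to 50108195 in Acinar and MucinDuctal cells. Times were compared with edgeR 4.0.16 under R 4.3.3 (robust quasi-likelihood test, TMM, filterByExpr, Benjamini-Hochberg adjustment at 0.05), with DESeq2 1.42.0 as an alternative. Cell groups were defined on the same counts, so no test was made between them: ratios were taken within mice as log2 of CPM plus 10, with mean and SD over 4 mice. Thinning drew 1500 UMIs per cell. For the medians, quartiles, correlations and macrophage shares of gene lists per cell this was done 20 times and averaged. All other thinned values, among them single genes and the edgeR fit, rest on a single draw. Doublets were scored with Scrublet in scanpy 1.11.5, and no cell was removed. In that alternative the highest scores, 0.8% per 1000 cells, were left out. The mouse is the replicate, with 2 per group. In the time test a change is set against the spread between mice of a group. In the interactions the mouse is a block, so a change is set against the spread of within-mouse differences. Both fits also draw on all genes to estimate the spread of each, so a small p-value does not rest on these few mice alone.

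Genes could be named from 22 lists, by up to 10 per direction between cell groups (mean of 100 CPM, same direction in 4 of 4 mice), and by up to 5 called genes per direction, or the 10 smallest p, over time (mean of 10 CPM, groups separated). For the interactions the ratio of the cluster to the other type had to separate the times, and not the level in the cluster. The members and lists were chosen with earlier results of these data known.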

Additional observations from a re-analysis of the deposited data

Results flagged for a closer look

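Of the 60 genes whose change between 2 and 4 weeks differed between the cluster and Acinar cells by the edgeR interaction test with Benjamini-Hochberg adjustment, the 8 chosen by the rule for named genes are given here. The change in the cluster was higher by 3.06 on the log2 scale for C1qa (adjusted p 1.03e-12), by 2.63 for Cd74, by 2.57 for C1qb (2.44e-08), by 1.92 for Lyz2 (4.34e-08) and by 2.90 for H2-Aa (3.26e-07). C1qa, Cd74, C1qb and Lyz2 passed in 11 of 11 alternatives run, and H2-Aa in 10 of 11, the exception being the fit without the highest doublet scores (adjusted p 0.184). Thinning of each cell was not among these alternatives. In the time test it removed the call of C1qb and turned the direction of C1qa. Acinar cells held at most 13 CPM of Lyz2 and 6.27 CPM of C1qa in any mouse, against 144 and 65.6 CPM at most in the cluster. The other clusters of the label were also higher at 4 weeks, with C1qa at 6.28 and 10.2 CPM at 2 weeks and 26.8 and 31.1 CPM at 4 weeks.

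The change was lower in the cluster by -1.74 for Hsd17b13, a lipid droplet enzyme, with edgeR adjusted p 1.26e-05, by -1.17 for Sostdc1 (0.0102) and by -1.19 for Wtip (0.0495). Hsd17b13 stood at 81.6 and 20.9 CPM at 2 weeks and at 15.7 and 13.9 CPM at 4 weeks, so its level at 2 weeks was set largely by mouse 1. Hsd17b13 passed in 10 of 11 alternatives, Sostdc1 in 7 and Wtip in 2.

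Against MucinDuctal cells the change was higher by 2.71 for Hist1h2ap (edgeR adjusted p 0.00546), 3.31 for H2-Eb1 (0.0225), 2.30 for Apoc1 (0.0264), 3.17 for H2-Aa (0.0264) and 1.87 for Tuba1a (0.0267). Hist1h2ap stood at 27.7, 64.6, 107 and 81.8 CPM in the cluster and at 13.3, 42.4, 8.13 and 6.99 CPM in MucinDuctal cells. Macrophage markers and depth moved with these results as given above, and their part in them was not tested for the interaction.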

How the results depend on the processing

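The count of genes changed with time, 1, became 25 by DESeq2, 2 without the enzymes (C1qb and Lyz2), 12 without cells holding 1 EYFP transcript, 87 with no gene filter and 0 without the robust setting (edgeR, with 310 genes whose unadjusted p was under 0.05). Leaving out 1 mouse gave 5 to 140 calls, namely 108 without 2-week mouse 1, 140 without 2-week mouse 2, 30 without 4-week mouse 1 and 5 without 4-week mouse 2, where the lone mouse is assumed to vary like the other group. For the difference from Acinar cells, 60 calls became 19 by DESeq2 and 99 without cells holding 1 EYFP transcript, and 51 to 199 without 1 mouse, with 199 without 2-week mouse 1. For the difference from MucinDuctal cells, 7 calls became 17 by DESeq2, 11 without cells holding 1 EYFP transcript, 14 without the highest doublet scores, 100 with no gene filter, 1 without the robust setting and 22 to 384 without 1 mouse (384 and 49 without 2-week mouse 1 and 2, 29 and 22 without 4-week mouse 1 and 2). The cause was not tested.

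Thinning, added after the data were seen, turned the time change of C1qa to -0.026 and of H2-Eb1 to -0.122. It was not run for the interactions. Enzymes left out of the library size moved the enzyme ratio to -1.02 against Acinar, 4.50 against MucinDuctal cells and 2.00 against the other clusters. The same setting moved the ductal ratio to 1.51, -0.764 and -0.312, the mucous neck ratio to MucinDuctal cells to -1.65 and the folding ratio to 0.207. Averaging each cell's CPM moved the enzyme ratio to Acinar cells to -0.724. Cells under 10000 UMIs alone, also added later, gave -1.77 for mucous neck and -1.68 for ductal genes against MucinDuctal cells.

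Against the other clusters the acinar factor ratio became 0.386 with each cell's CPM averaged, 0.290 without enzymes, 0.316 thinned and 0.415 under 10000 UMIs, and the folding ratio 0.0865, 0.187, 0.0205 and 0.159. The median enzyme share of thinned members, 29.9%, became 28.7% at 1000 UMIs and 28.0% without the highest doublet scores. No paired analysis was possible because, between the times, the labels tie no 2-week mouse to a 4-week mouse. Cell groups were compared within mice.

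With 2 mice per time, the count of calls moved with each mouse left out. The share of calls that were higher fell when either 2-week mouse was left out, so the direction of the calls was not stable. Members hold few UMIs in 3 of 4 mice, so absence of a low transcript such as Ptf1a from a cell was not detectable at this depth.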
